A study of Callithrix jacchus with 6 samples.

Results

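Myelin is the multilayered membrane that oligodendrocytes wrap around axons, and its genes fall into proteins that hold the layers together and enzymes that make its lipids. The members described here are MBP, MOG, MAG, MOBP, OPALIN and MAL among the proteins, and FA2H, UGT8 and GAL3ST1 among the lipid enzymes. They were picked by gene symbol, though earlier results of these data were known when they were chosen. Of the 9 symbols listed, 8 had a row among the 29320 genes of the feature tables, and MOBP, for which no row carried the symbol, is not analysed here. The gene identifiers were ENSCJAG00000047439 for MBP, ENSCJAG00000043626 for MOG, ENSCJAG00000038661 for MAG, ENSCJAG00000047907 for OPALIN and ENSCJAG00000018948 for MAL. They were ENSCJAG00000014444 for FA2H, ENSCJAG00000003461 for UGT8 and ENSCJAG00000010605 for GAL3ST1.

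The cells came from the hippocampus of marmosets (Callithrix jacchus), which the series title calls aged. The animals had been exposed for 6 h to oxygen as the control or to sevoflurane, an inhaled anaesthetic. Each group had 3 libraries, all from collagenase-digested, cryopreserved and thawed suspensions counted with 10x Genomics 3′ chemistry. In that assay each captured RNA molecule carries a unique molecular identifier (UMI). Whether each library stands for its own animal is not stated, and p-values therefore reflect only how far these libraries spread, which may be technical.

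In the biology of myelin, MBP seals the cytoplasmic faces of the membrane, MOG sits on the outermost layer, MAG faces the axon, OPALIN is a transmembrane protein of oligodendrocytes, and MAL is a proteolipid of lipid-rich membrane. FA2H hydroxylates the fatty acids of myelin sphingolipids, UGT8 joins galactose to ceramide to make galactosylceramide, and GAL3ST1 adds sulfate to that lipid to make sulfatide. Oligodendrocytes arise from oligodendrocyte precursor cells (OPCs), and sulfatide is known to appear on the lineage before the compact myelin proteins. In droplet data, RNA set free from broken cells also gives UMIs in cells that do not make it.

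The libraries held 7103 to 8577 barcodes and 41164947 to 47886816 UMIs, and 44234 of 46582 barcodes were kept after doublet removal. Pairs of libraries shared 13 to 27 barcode sequences. Cells were clustered with the members left out of the genes used, and clusters were named from markers that include no member. This gave 8100 oligodendrocyte-like cells (1032 to 1706 per library, median depth 1552 to 2183 UMIs) and 1988 OPC-like cells (195 to 410 per library, median depth 2606.5 to 3294 UMIs). The marker sums describe the classes and are no test of their names, which rest on these markers: 22 measured oligodendrocyte markers summed to 18067 to 20987 CPM (UMIs scaled to a fixed total per library and class) in oligodendrocyte-like cells and 1708 to 2117 CPM in OPC-like cells. The 16 OPC markers summed to 697 to 905 CPM and 25045 to 27291 CPM in the same classes. Oligodendrocyte-like cells made up 17.7% ± 3.90 of the cells with oxygen and 18.9% ± 2.27 with sevoflurane (SD, n = 3 each, exact two-sided permutation test p = 0.6), and OPC-like cells 4.91% ± 0.41 and 4.02% ± 0.943 (exact permutation p = 0.2). With 3 libraries a group this test cannot go below 0.1.

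One library stood apart. Oligodendrocyte-like cells formed 3 clusters, numbered 5 (5205 cells), 6 (1144 cells) and 7 (1751 cells), and 74.8% of those of sevoflurane replicate 3 lay in cluster 6, against 0.194% to 6.72% in the other 5 libraries. Results that rest on this library are given with and without it. Sevoflurane replicate 1 held 503 of the 521 choroid plexus epithelial-like cells, and the summed choroid plexus markers in its oligodendrocyte-like cells were 425 CPM, against 70.0 to 139 CPM in the other libraries.

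For each member other than GAL3ST1, most UMIs came from oligodendrocyte-like cells. The share of all UMIs of kept cells was 89.1% for MAL, 88.9% for OPALIN, 86.1% for MOG, 80.7% for MAG, 79.4% for UGT8, 77.2% for FA2H and 70.7% for MBP. GAL3ST1 differed: 42.6% of its UMIs lay in oligodendrocyte-like cells and 16.8% in OPC-like cells, a class with fewer cells. The other named classes together held 35.5% of its UMIs. For the other 7 members the OPC-like share was between 0.314% and 4.33%. With each cell thinned to 1000 UMIs, 92.4% ± 1.81 of oligodendrocyte-like cells in the oxygen libraries had an MBP UMI, 74.7% ± 3.34 a MOG UMI and 54.8% ± 5.90 a MAL UMI (SD, n = 3). In astrocyte-like cells, which are not known to make myelin, the same shares were 3.99%, 2.79% and 0.965%, at a median depth of 2304.5 to 3030 UMIs before thinning. Thinning left out 113 oxygen and 233 sevoflurane oligodendrocyte-like cells, and 45 and 26 astrocyte-like cells. Levels are not ranked between genes below, only between classes and groups for 1 gene.

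**Figure D1:**
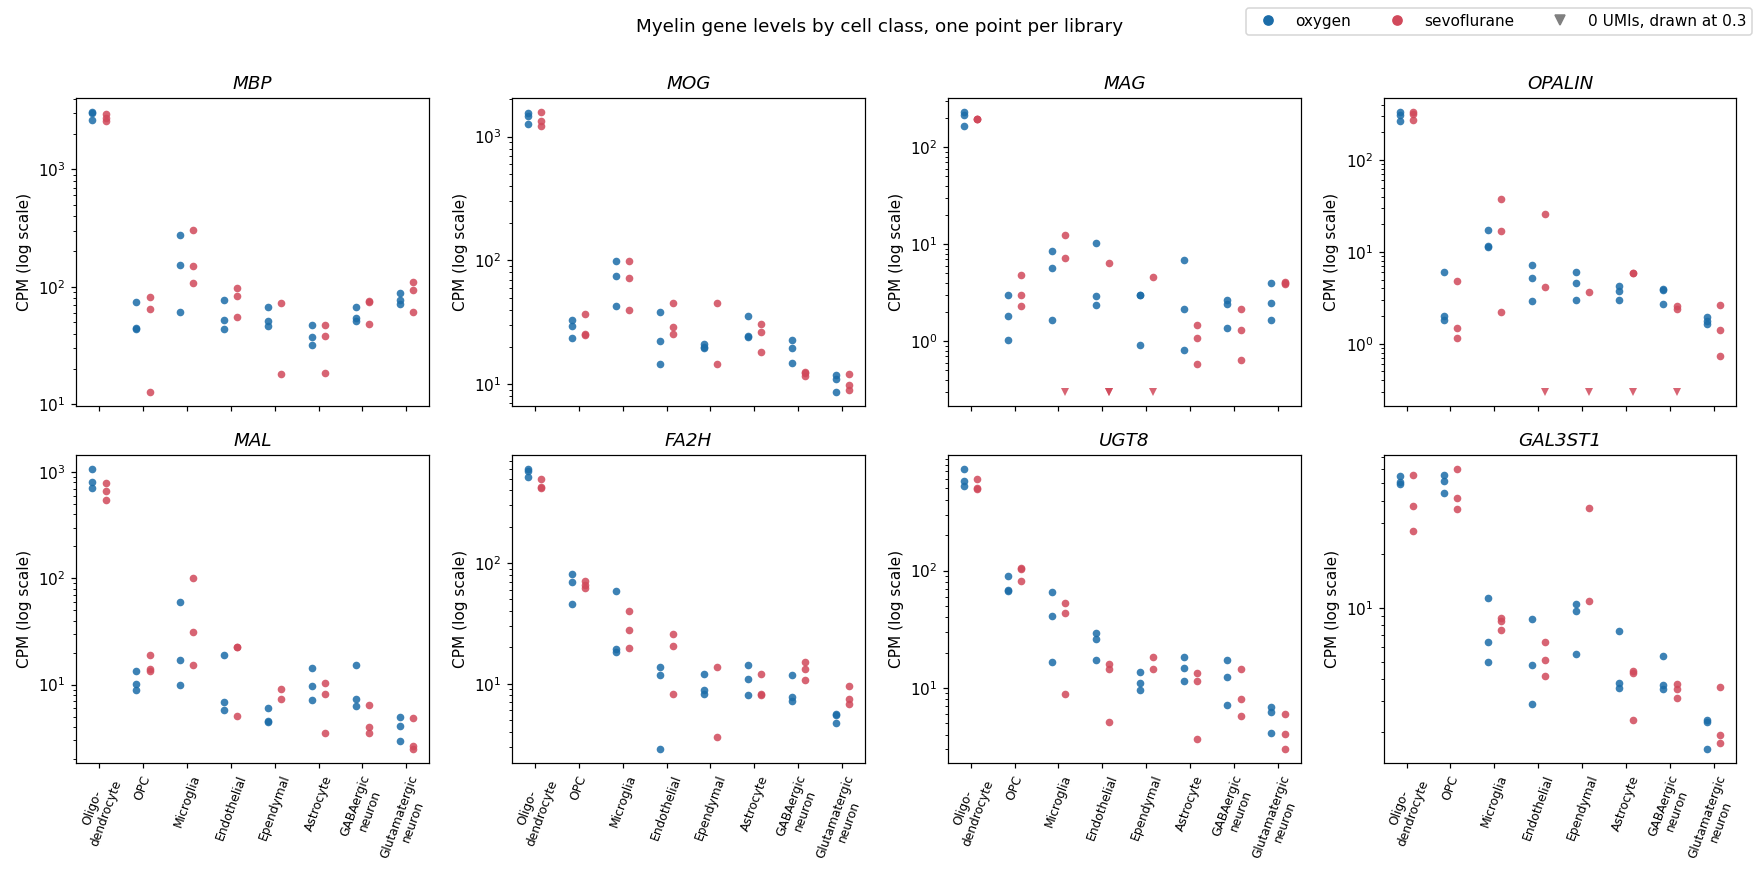
CPM (log scale) of the 8 members in 8 cell classes, with 1 point for each library holding at least 20 cells of the class and triangles for 0 UMIs. For 7 members the oligodendrocyte-like points lie above all others, while GAL3ST1 was 26.9 to 55.6 CPM in oligodendrocyte-like and 36.0 to 60.1 CPM in OPC-like cells.

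Among the members, the lipid enzymes and the myelin proteins parted in OPC-like cells. FA2H stood at 13.2% ± 2.63 of its level in oligodendrocyte-like cells of the same library, UGT8 at 15.4% ± 4.03 and GAL3ST1 at 112% ± 38.4 (SD, n = 6 libraries). The 5 member proteins stood at 0.955% to 2.08% of it: MOG at 2.08% ± 0.497, MBP at 1.91% ± 0.917, MAL at 1.84% ± 0.865, MAG at 1.34% ± 0.644 and OPALIN at 0.955% ± 0.658. The split did not extend to all myelin proteins: outside the members, CNP stood at 16.6% ± 6.73 and CLDN11 at 4.86% ± 2.18 in OPC-like cells (SD, n = 6), both chosen after their values were seen. In astrocyte-like cells all 7 members other than GAL3ST1 lay between 1.02% and 2.15%, with FA2H at 2.08% ± 0.606 and UGT8 at 2.15% ± 0.814, and GAL3ST1 at 9.53% ± 3.17. These are descriptions, since the classes were built from the cells' own expression.

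GAL3ST1, the sulfatide-making enzyme, gave 55.6, 51.8 and 44.3 CPM in the OPC-like cells of oxygen replicates 1 to 3 and 60.1, 36.0 and 41.4 CPM in those of sevoflurane replicates 1 to 3. Its oligodendrocyte-like values were 49.6, 54.8 and 50.7 CPM with oxygen and 37.1, 55.6 and 26.9 CPM with sevoflurane. The OPC-like value was the higher of the pair in 3 of 6 libraries, so neither class was above the other beyond the spread between libraries. The lowest oligodendrocyte-like value belonged to sevoflurane replicate 3, and within its oligodendrocyte-like cells cluster 6 gave 26.0 CPM, cluster 5 gave 26.1 CPM and cluster 7 gave 40.8 CPM. The cluster 7 value came from only 68 cells of that library, and no interval is given for it. Against astrocyte-like cells, GAL3ST1 was 11.2-fold higher in OPC-like cells, and it was higher there in 6 of 6 libraries.

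UGT8, the galactosylceramide-making enzyme, gave 68.5, 67.1 and 89.5 CPM in OPC-like cells with oxygen and 104, 106 and 81.2 CPM with sevoflurane. It exceeded the astrocyte-like level 7.06-fold and the microglia-like level 2.27-fold, in 6 of 6 libraries each. FA2H, the fatty acid hydroxylase, gave 45.7, 70.1 and 81.3 CPM in OPC-like cells with oxygen and 70.6, 66.2 and 62.0 CPM with sevoflurane, 6.43-fold above astrocyte-like and 2.16-fold above microglia-like cells, again in 6 of 6 libraries. For MOG the ratio of OPC-like to astrocyte-like cells was 1.09 (higher in 3 of 6 libraries), for MBP 1.46 (4 of 6), for MAL 1.49 (5 of 6), for MAG 1.22 (4 of 6) and for OPALIN 0.758 (2 of 6). MAG and OPALIN rested on 15 and 17 UMIs in all OPC-like cells, so a difference from astrocyte-like cells was not detectable at this depth. After thinning to 1000 UMIs, 7.29% ± 1.42 of OPC-like cells of the oxygen libraries had a UGT8 UMI, 5.85% ± 1.38 an FA2H UMI and 5.32% ± 0.963 a GAL3ST1 UMI. The same shares in astrocyte-like cells were 1.54%, 0.919% and 0.466%. Without thinning, the OPC-like cells held 0.249 UGT8, 0.191 FA2H and 0.140 GAL3ST1 UMIs per cell.

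**Figure D2:**
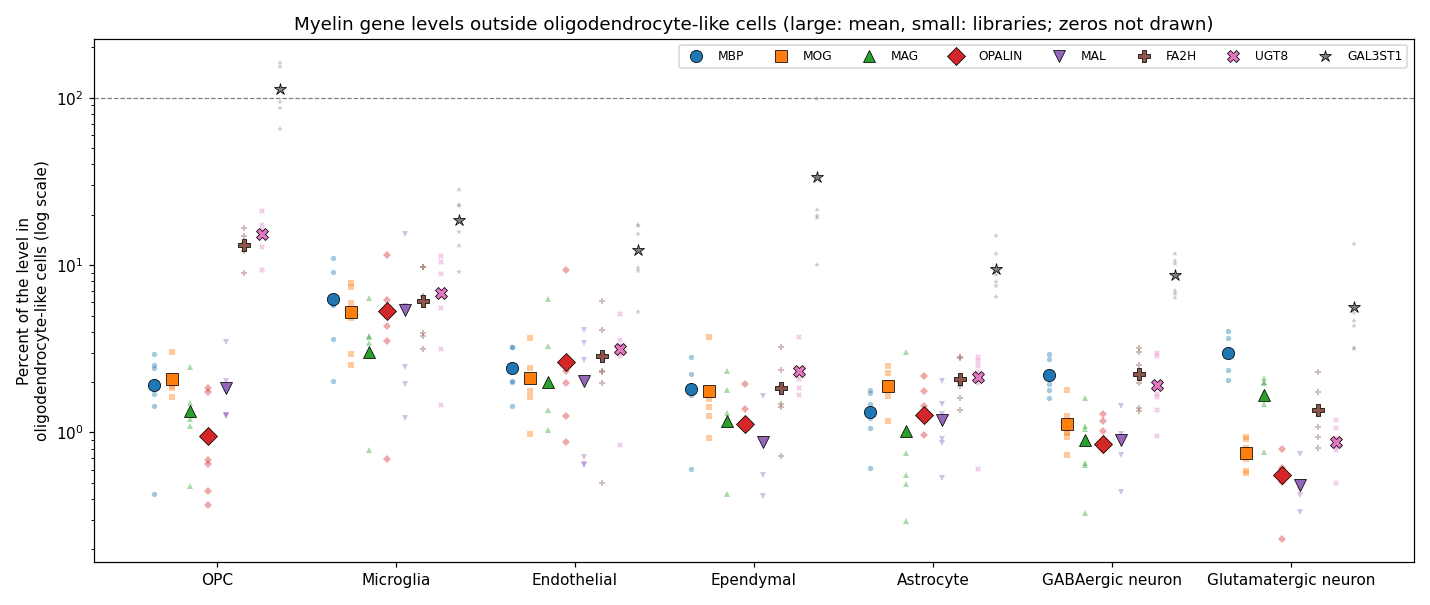
Level of each member outside oligodendrocyte-like cells as a percent of its level in oligodendrocyte-like cells of the same library (log scale), with large symbols for the mean of the libraries and small ones for single libraries. In OPC-like cells FA2H (13.2%), UGT8 (15.4%) and GAL3ST1 (112%) lie above the 5 member proteins, which lie between 0.955% and 2.08%.

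Counted per cell, MBP spread more widely over the classes outside the lineage than MOG. Mean MOG UMIs per cell ran from 0.0697 in ependymal-like to 0.140 in microglia-like cells, with 0.0726 in astrocyte-like, 0.0906 in glutamatergic neuron-like and 0.114 in GABAergic neuron-like cells. OPC-like cells, which belong to the lineage, had 0.0838. The median depth of these classes differed: 5927 to 9524 UMIs per library in glutamatergic neuron-like cells against 2304.5 to 3030 in astrocyte-like cells. MBP gave 0.102 UMIs per cell in astrocyte-like, 0.354 in microglia-like, 0.451 in GABAergic neuron-like and 0.734 in glutamatergic neuron-like cells, and 0.158 in OPC-like cells. The ratio of MBP to MOG UMIs was 8.04 ± 1.13 in glutamatergic neuron-like cells, and it ran from 2.60 to 6.13 in GABAergic neuron-like cells. It was 2.03 ± 0.241 in oligodendrocyte-like and 1.38 ± 0.274 in astrocyte-like cells (SD, n = 6 libraries). The glutamatergic and oligodendrocyte-like ranges, 6.81 to 9.57 and 1.68 to 2.41, did not overlap.

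In glutamatergic neuron-like cells (17753 cells) MBP gave 76.7, 71.5 and 89.5 CPM with oxygen and 94.0, 61.1 and 111 CPM with sevoflurane, higher than in astrocyte-like cells of the same library in 6 of 6 libraries. MOG was lower in CPM than in astrocyte-like cells in 6 of 6 libraries, at 8.67 to 12.2 CPM against 18.3 to 35.5 CPM. Counted per cell the order turned, with a mean of 0.0906 MOG UMIs in glutamatergic neuron-like and 0.0726 in astrocyte-like cells. The part of depth in the CPM order was not tested. In glutamatergic neuron-like cells MBP stood at 2.99% ± 0.756 of its oligodendrocyte-like level, MAG at 1.68% ± 0.501 and FA2H at 1.37% ± 0.563. UGT8 stood at 0.883% ± 0.241, MOG at 0.753% ± 0.160, OPALIN at 0.556% ± 0.185 and MAL at 0.487% ± 0.137. Thinned to 1000 UMIs, 6.64% of glutamatergic and 4.94% of GABAergic neuron-like cells of the oxygen libraries had an MBP UMI, beside the 3.99% of astrocyte-like cells. In the RefSeq gene table (assembly calJac240_pri) MBP overlaps 3 long non-coding RNA loci and MOG 1 protein-coding locus. The sources used here do not say how reads in an overlap were assigned, so both counts are uncertain to that extent.

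Microglia-like cells (1876 cells) held the highest share of the oligodendrocyte-like level outside the lineage, in means over libraries, for MBP, MOG, MAG, OPALIN, MAL, FA2H and UGT8. These lay between 3.01% for MAG and 6.80% for UGT8. GAL3ST1 stood at 18.5% ± 7.07 there and at 33.6% ± 36.4 (SD, n = 5) in ependymal-like cells. These shares rest on CPM, and per cell the order differed for some members. Glutamatergic neuron-like cells held more MBP (0.734 against 0.354 UMIs per cell) and MAG (0.0285 against 0.0119) than microglia-like cells. GABAergic neuron-like cells held more FA2H (0.0824 against 0.0613) and UGT8 (0.0771 against 0.0755). MOG, OPALIN and MAL were highest in microglia-like cells per cell too. In microglia-like cells MBP gave 152, 61.4 and 277 CPM with oxygen and 151, 108 and 304 CPM with sevoflurane. MAL gave 17.2, 10.0 and 59.7 CPM with oxygen and 31.4, 15.4 and 100.5 CPM with sevoflurane. Oxygen replicate 3 and sevoflurane replicate 3 were the highest of their groups for both genes. Microglia-like cells of these libraries also had the highest median depth, 2085.5 and 2174 UMIs against 1469 to 1802 in the other 4 libraries. The part of depth in these values was not tested.

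The MBP level of other cells was set against the oligodendrocyte content of the library. Over 6 libraries, Pearson's r between MBP CPM in all non-lineage cells and the oligodendrocyte-like share of UMIs (5.25% to 8.04%) was 0.427 (exact permutation p = 0.390) and Spearman's rho 0.314 (exact permutation p = 0.564). Leaving out oxygen replicate 3 and sevoflurane replicate 3, the farthest from the median content, gave r = 0.190. Of 7 classes compared, r ran from -0.802 in endothelial-like to 0.597 in astrocyte-like cells, and the smallest Benjamini-Hochberg adjusted permutation p was 0.535. No relation passed the test at this number of libraries.

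No myelin gene passed the test between sevoflurane and oxygen in oligodendrocyte-like cells. With edgeR's quasi-likelihood test adjusted by the Benjamini-Hochberg method, 0 of 8 members were called. An unadjusted p under 0.05 was found for 1 member, beside 916 of all 11680 genes tested. DESeq2 also called 0 members. Among all 11680 genes tested, 0.0171% were called. The fitted change was negative for 7 of the 8 members, with a median log2 fold change of -0.16 against 0.01 over all genes tested. The members that lay lowest were MAL and the 3 lipid enzymes.

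FA2H gave 512, 577 and 600.0 CPM in oligodendrocyte-like cells with oxygen and 423, 501 and 415 CPM with sevoflurane. Every sevoflurane value lay below every oxygen value, which was also so for 6.01% of all genes tested. The log2 fold change was -0.36 ± 0.12 (SE), a fold of 0.78 with a 95% interval of 0.649 to 0.939 (edgeR unadjusted p = 0.0149, adjusted p = 0.539), so it failed the correction over all genes. Without sevoflurane replicate 3 the log2 change was -0.34, and within cluster 5 and cluster 7 alone it was -0.33 and -0.31. The share of oligodendrocyte-like cells with an FA2H UMI after thinning to 1000 was 41.1% ± 2.15 with oxygen and 33.6% ± 3.33 with sevoflurane (SD, n = 3 each). Without thinning the means were 61.2% and 50.7%. At 1000 UMIs the libraries gave 39.0%, 43.3% and 41.0% against 32.5%, 37.3% and 30.9%, with no overlap. A two-sided exact permutation test gave an unadjusted p = 0.1, which 3 libraries a group cannot go below. These shares come from the same UMIs as the CPM values, so they are no separate evidence.

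MAL gave 702, 815 and 1068 CPM with oxygen and 548, 795 and 659 CPM with sevoflurane, so the groups overlapped. Its fold was 0.764 (95% interval 0.563 to 1.04, edgeR adjusted p = 0.696), and the log2 change of -0.39 was -0.20 without oxygen replicate 3 and -0.26 without sevoflurane replicate 1. UGT8 gave 732, 525 and 580 CPM against 492, 606 and 503 CPM, a fold of 0.857 (0.669 to 1.10). Its log2 change of -0.22 was -0.07 without oxygen replicate 1, the highest library. GAL3ST1, with the values given above, had a fold of 0.749 (0.515 to 1.09), and its log2 change of -0.42 was -0.22 without sevoflurane replicate 3 and -0.70 without sevoflurane replicate 2.

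For MBP, MOG, MAG and OPALIN the fitted folds lay closer to 1, and all intervals included 1. MBP gave 2628, 3032 and 3058 CPM with oxygen and 2569, 2978 and 2743 CPM with sevoflurane, a fold of 0.938 (95% interval 0.778 to 1.13). MOG gave 1562, 1476 and 1268 CPM against 1222, 1572 and 1332 CPM, a fold of 0.944 (0.758 to 1.18). MAG gave 229, 213 and 166 CPM against 195, 193 and 197 CPM, a fold of 0.948 (0.757 to 1.19), with the 3 sevoflurane values inside the oxygen range. OPALIN gave 307, 331 and 264 CPM against 275, 315 and 330 CPM, a fold of 1.01 (0.810 to 1.25). These intervals, from 3 libraries a group, are unadjusted and are no limits of detection, since a call also needed the correction over all genes tested.

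**Figure D3:**
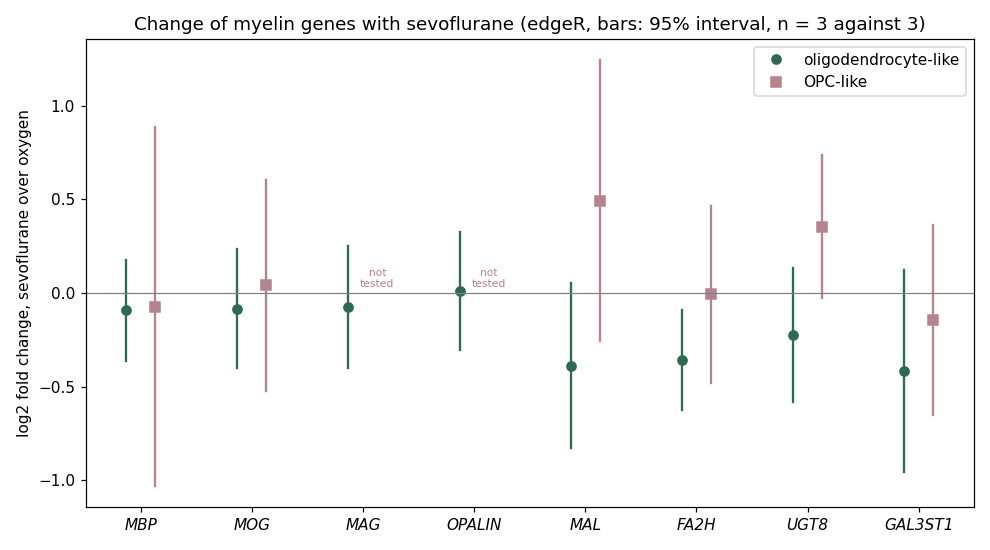
Log2 fold change of each member, sevoflurane over oxygen, in oligodendrocyte-like (circles) and OPC-like cells (squares), with 95% intervals from edgeR over 3 against 3 libraries. The FA2H interval in oligodendrocyte-like cells ends below 0 (-0.62 to -0.09), all other intervals include 0, and MAG and OPALIN had too few UMIs in OPC-like cells to be tested.

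In OPC-like cells 6 of the 8 members passed the filter on low counts, and edgeR called 0 of them. An unadjusted p under 0.05 was found for 0 of them, beside 551 of all genes tested. DESeq2 called 0 members. Of all 9143 genes tested 0.0328% were called. The groups overlapped for all 6 members tested, while 7.04% of all genes tested lay wholly higher and 4.99% wholly lower with sevoflurane. Among other cells' markers in OPC-like cells, the GABAergic neuron list summed to 943 to 1010 CPM with oxygen and 775 to 907 CPM with sevoflurane, and its part in these values was not tested. UGT8 had a fold of 1.28 (95% interval 0.980 to 1.66, edgeR adjusted p = 0.853), with sevoflurane values of 81.2 to 106 CPM that overlapped the 67.1 to 89.5 CPM of oxygen. MAL had a fold of 1.41 (0.837 to 2.37), from 8.94 to 13.6 CPM with oxygen and 13.3 to 19.1 CPM with sevoflurane. FA2H had a fold of 0.994 (0.718 to 1.38) and GAL3ST1 of 0.906 (0.637 to 1.29). MBP, at 44.7, 43.7 and 74.1 CPM with oxygen and 64.9, 12.8 and 81.2 CPM with sevoflurane, had the widest interval on the log2 scale, a fold of 0.489 to 1.85, and its sevoflurane replicate 2 value rested on 11 UMIs. MOG had a fold of 1.03 (0.695 to 1.52). The signs of MBP, MOG, FA2H and GAL3ST1 turned under some of the alternatives, so no direction is given for them.

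Outside the lineage edgeR called 0 members in any class. In all non-lineage cells together 8 members were tested and 0% of 18747 genes called. The counts were 8 members in glutamatergic neuron-like cells (0.00577% of all genes called), 7 in GABAergic neuron-like (0%), 5 in astrocyte-like (0.0180%), 5 in microglia-like (0.0913%) and 2 in endothelial-like cells (0%). DESeq2 called 0 members in any class. In GABAergic neuron-like cells 2 members, MOG and MAL, had an unadjusted p under 0.05, beside 1492 of all 13083 genes tested. MOG was 19.7, 14.7 and 22.8 CPM with oxygen and 12.3, 11.5 and 12.5 CPM with sevoflurane there, a fold of 0.614 (95% interval 0.444 to 0.849, edgeR adjusted p = 0.225). Its groups did not overlap, as for OPALIN and 5.20% of all genes in the lower direction. FA2H in glutamatergic neuron-like cells was 5.51, 4.68 and 5.65 CPM with oxygen and 7.43, 6.73 and 9.52 CPM with sevoflurane, a fold of 1.39 (0.995 to 1.94, edgeR adjusted p = 0.660), with no overlap, as for 12.9% of all genes in the higher direction.

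The response of oligodendrocyte-like cells was also set against that of other classes, with limma on differences of log2 CPM within libraries. It called 0 of 6 members against OPC-like cells, 0 of 5 against astrocyte-like and 0 of 8 against all non-lineage cells, and 0% of all genes in each comparison. UGT8 came nearest to the threshold, against OPC-like cells, where the log2 response was lower in oligodendrocyte-like cells by -0.55 ± 0.25 (SE, limma adjusted p = 0.750). For FA2H the difference against non-lineage cells was -0.69 ± 0.43 (SE, limma adjusted p = 0.879).

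Markers of other cells in the oligodendrocyte-like libraries moved in part with the groups. Of 12 marker lists besides the oligodendrocyte and OPC lists, the summed level of 4 did not overlap between the groups. Committed precursor markers (8 genes) summed to 1762 to 1852 CPM with oxygen and 1493 to 1637 CPM with sevoflurane. Most of this sum was ITPR2, at 1248 and 1022 CPM, while BCAS1 was 306 and 329 CPM and ENPP6 53.9 and 54.4 CPM. TCF7L2 was also lower with sevoflurane, with its values given below. The fitted change was negative for 4 of the 5 genes of this list that were tested. GABAergic neuron markers summed to 230 to 259 CPM and 164 to 210 CPM. Mural markers summed to 183 to 212 CPM with oxygen and 238 to 292 CPM with sevoflurane, and choroid plexus markers to 70.0 to 126 CPM and 129 to 425 CPM. Microglia markers stood at 55.5 to 106 CPM with CD163 at 0, T cell markers at 8.73 to 22.1 CPM with CD3D at 0, and ependymal markers at 96.7 to 223 CPM with FOXJ1 at 0. Astrocyte markers stood at 801 to 1185 CPM, neuron markers at 838 to 1244 CPM, glutamatergic neuron markers at 487 to 678 CPM, endothelial markers at 95.8 to 110 CPM and fibroblast markers at 19.2 to 42.0 CPM. Their part in the member values was not tested.

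Within the oligodendrocyte-like class the members did not move as a block. Between clusters 7 and 5 of the same library, UGT8 was higher in cluster 7 by 0.35 ± 0.11 (mean log2 ratio of CPM, SD, n = 6), GAL3ST1 by 0.32 ± 0.24, MBP by 0.20 ± 0.04, FA2H by 0.18 ± 0.17 and MAG by 0.18 ± 0.06, each in 6 of 6 libraries. OPALIN went the other way, at -0.27 ± 0.10 and lower in cluster 7 in 6 of 6 libraries. MAL had a mean of 0.04 ± 0.27 and was higher in 1 of 6 libraries, and MOG had 0.14 ± 0.14 and was higher in 5 of 6. Cluster 7 cells were deeper than cluster 5 cells (median 2367 against 1596 UMIs). The genes leading cluster 7 against all other cells included ANLN, SLC5A11 and GSN. ST18 and MYRF, among the leading genes of cluster 5 against all other cells, did not set it apart from cluster 7: ST18 was 4135 CPM in cluster 5 and 4954 CPM in cluster 7, and MYRF 175 and 196 CPM. Cluster 6, mostly of sevoflurane replicate 3, had GAL3ST1 at 27.8 CPM (exact Poisson 95% interval 22.0 to 34.6, counting error only) and OPALIN at 360 CPM (338 to 382) over all its cells. Cluster 5 had 44.5 CPM (40.2 to 49.2) and 310 CPM (299 to 322). How much of the GAL3ST1 gap lay between libraries was not tested. Within libraries with at least 20 cells in both clusters, GAL3ST1 was higher in cluster 6 in 0 of 3, with a mean log2 ratio of -0.40 ± 0.34 (SD). Sevoflurane replicate 3, which gave 970 of the 1144 cells of cluster 6, had 26.0 CPM in cluster 6 and 26.1 CPM in cluster 5. All 1144 cells of cluster 6 held 79 GAL3ST1 UMIs, so the values of oxygen replicates 1 and 2 there rest on few UMIs. These libraries, with 101 and 44 cells in cluster 6, gave 29.4 and 35.7 CPM there and 46.2 and 51.4 CPM in cluster 5. OPALIN was higher in cluster 6 than in cluster 5 in all 3 of these libraries, at 352 against 257 CPM in sevoflurane replicate 3. These differences are descriptions, since the clusters were made from the same cells.

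**Figure D4:**
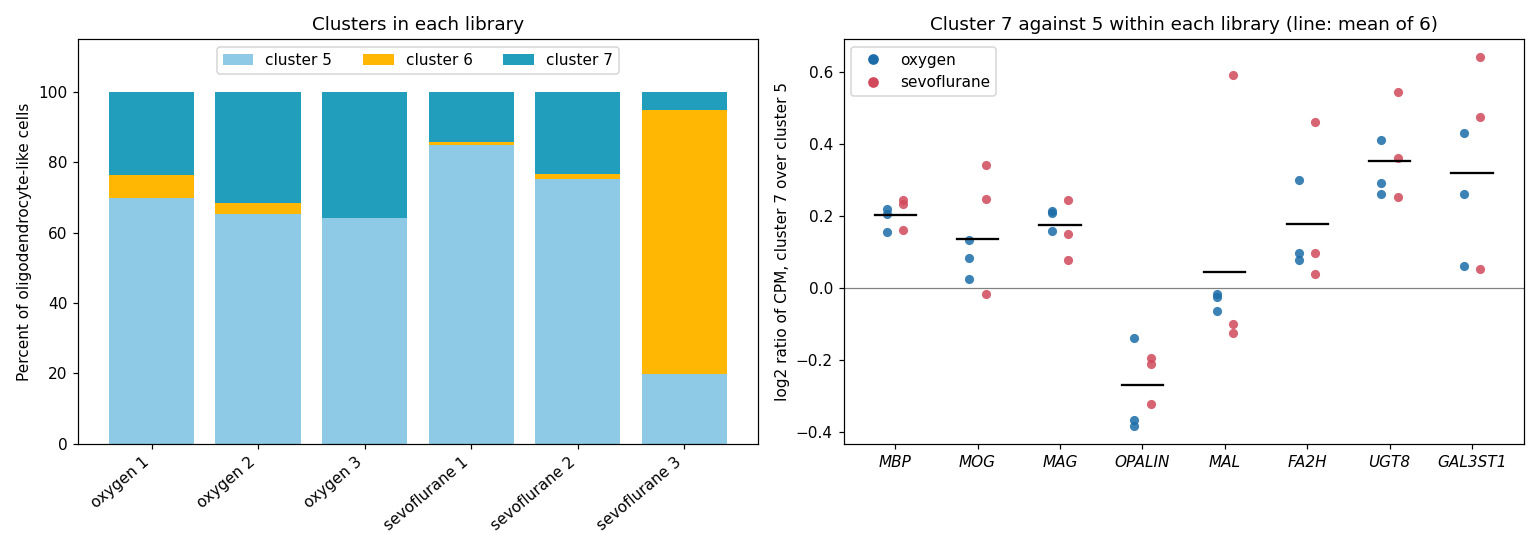
Left, percent of oligodendrocyte-like cells in clusters 5, 6 and 7 for each library. Right, log2 ratio of CPM in cluster 7 over cluster 5 within each library, with a line at the mean of 6: OPALIN lies below 0 and MBP, MAG, FA2H, UGT8 and GAL3ST1 above 0 in every library, and cluster 6 holds 74.8% of the cells of sevoflurane replicate 3.

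Genes of the same pathways were taken from 4 lists, and none of their genes was called in oligodendrocyte-like or OPC-like cells by edgeR. Of 28 other compact and axon-facing myelin proteins, 19 were tested in oligodendrocyte-like cells, and 3 had an unadjusted p under 0.05. The same held for 916 of all 11680 genes tested in this class. The median log2 fold change of the list was 0.02, beside 0.01 over all genes. MYO1D, an unconventional myosin, was 871 ± 71.6 CPM with oxygen and 853 ± 59.9 CPM with sevoflurane (SD, n = 3 each), NFASC, an adhesion molecule of the node of Ranvier, 610 ± 55.2 and 797 ± 83.3 CPM, and JAM3, a junctional adhesion molecule, 440 ± 43.3 and 493 ± 56.9 CPM. Of these examples NFASC lay farthest to the higher side (edgeR adjusted p = 0.589).

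Of 34 sphingolipid, very long chain fatty acid and sulfatide genes besides the members, 26 were tested, 3 had an unadjusted p under 0.05 and the median was -0.07. For this list and those below, the count under 0.05 stands beside the same 916 of 11680 genes. The examples were PLD1, a phospholipase, at 727 ± 37.2 and 854 ± 98.6 CPM, SPTLC2, a subunit of the enzyme that starts sphingolipid synthesis, at 340 ± 53.9 and 330 ± 49.9 CPM, ACACA, which makes malonyl-CoA for fatty acid synthesis, at 267 ± 10.97 and 251 ± 21.5 CPM, and CERT1, a ceramide carrier, at 162 ± 16.6 and 158 ± 9.72 CPM. Of 20 transcription factors of myelination, 12 were tested, 1 had an unadjusted p under 0.05 and the median was -0.07. ST18 was 4226 ± 429 and 4470 ± 493 CPM, ZEB2, a repressor needed for myelination, 1861 ± 216 and 1757 ± 90.5 CPM, and MYRF, the factor that switches on myelin genes, 191 ± 7.76 and 182 ± 22.9 CPM. TFEB, a factor of lysosomal genes, was 253 ± 6.89 and 198 ± 14.8 CPM (edgeR adjusted p = 0.450). Of 8 committed precursor genes, which share TCF7L2 with the factors, 5 were tested, 2 had an unadjusted p under 0.05 and the median was -0.26. ITPR2, a calcium release channel, was 1248 ± 59.2 and 1022 ± 41.2 CPM (edgeR adjusted p = 0.559), BCAS1 306 ± 121 and 329 ± 76.7 CPM, TCF7L2 188 ± 13.4 and 160 ± 16.4 CPM, and ENPP6 53.9 ± 10.5 and 54.4 ± 11.1 CPM. In OPC-like cells the lists had 13, 24, 10 and 5 genes tested, with medians of 0.07, 0.05, 0.06 and 0.09.

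The genes whose pattern over 9 classes was most like that of the members were ENSCJAG00000053711 (no symbol), DEPDC7, COLGALT2, a collagen galactosyltransferase, CDH19, a cadherin, and ENSCJAG00000063363 (no symbol). Their Pearson's r with the mean standardised log2(CPM + 1) profile of the members was 0.988, 0.988, 0.981, 0.980 and 0.979 among 17674 genes with at least 100 UMIs. The members themselves gave 0.983 for MOG, 0.983 for MAL, 0.971 for FA2H, 0.958 for OPALIN, 0.957 for UGT8, 0.953 for MAG and 0.927 for MBP, and 0.752 for GAL3ST1, the member least like the rest. Each member is itself part of the mean profile, which raises its r. The classes share libraries and differ in depth, so these values are descriptions.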

How the data were processed

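The authors deposited UMI counts per gene and barcode, made with Cell Ranger 6.1.1 per the file headers and with CASAVA 1.8 and Seurat named in the submitters' processing notes. Of 29320 genes, 15188 had a symbol in the file and 1379 took one from the gene name table. The genome build is not given in the sources used here. Members and gene lists were chosen with earlier results of these data known. Doublets were scored with scrublet in scanpy 1.11.5, and barcodes above 0.214, the median of the 6 automatic thresholds, were removed (2348). Leiden clusters (resolution 1) used 30 components of 2000 variable genes without the members. Counts were summed per library and class (at least 20 cells) and tested with edgeR 4.0.16 (filterByExpr, TMM, all genes, Benjamini-Hochberg), with DESeq2 1.42.0 as an alternative and limma 3.58.1 for differences between classes. A gene was called at an adjusted p under 0.05. Scripts were tested on simulated data. The 9 members were always named; of each list, every gene called in oligodendrocyte-like or OPC-like cells and the 4 with the highest mean CPM in oligodendrocyte-like cells; and the 5 genes most alike in pattern. One gene that this rule names is not reported here.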

Additional observations from a re-analysis of the deposited data

How the results depend on the processing

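The number of members called stayed 0 in 135 of 135 alternatives run (DESeq2 or its size factors, no filter, the replicate block, each library left out, other clusterings and other doublet limits). The oligodendrocyte-like share difference ranged from -0.989 to 2.71 percentage points over the libraries left out. The microglia-like r between MBP and oligodendrocyte content, 0.0863, turned to -0.413 with shares of cells and -0.141 without the 10% highest doublet scores. In oligodendrocyte-like cells 122 of 128 log2 changes kept their direction. The exceptions were OPALIN at -0.17 in cluster 5 and -0.11 in cluster 7 alone and, leaving out libraries, OPALIN (-0.0799 to 0.0958), MAG (-0.192 to 0.0295) and MOG (-0.166 to 0.0044). In OPC-like cells 14 of 84 turned. Leaving out libraries gave FA2H -0.21 to 0.17, GAL3ST1 -0.413 to 0.0227, MBP -0.46 to 0.40 and MOG -0.19 to 0.15. FA2H was 0.0268 with the replicate block and 0.0194 without the highest doublet scores. Without doublet removal MBP was 0.0317 and MOG -0.0462, and MBP was 0.28 without the highest doublet scores. The causes were not tested. The alternatives with cluster 5 or 7 alone were chosen after seeing the data.

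The difference in the share of cells with a UMI, sevoflurane minus oxygen, moved for FA2H in oligodendrocyte-like cells from -7.55 to -10.5 points with no thinning and -11.1 at 2000 UMIs. It moved for GAL3ST1 from -1.14 to -2.42 with no thinning, and in OPC-like cells for UGT8 from 0.863 to 3.54 with no thinning and for GAL3ST1 from 0.362 to -1.49 at 2000 UMIs. Counts over all genes moved more: the 2 genes called in oligodendrocyte-like cells became 62 with no filter, 41 with DESeq2, 0 with the replicate block and 0 to 3 without 1 library, and the 3 in OPC-like cells 97, 14, 0 and 0 to 10. The labels give no animal, litter or day shared by same-numbered libraries, so the numbers were not used as pairs. Same-numbered libraries did not deviate together in oligodendrocyte-like and OPC-like cells (r from -0.313 to -0.0284). With 3 libraries a group, these values cannot show whether the numbers mark pairs. The intervals in the report rest on 3 libraries a group and are unadjusted, so they do not mark which changes would have been called. MAG and OPALIN in OPC-like cells were limited by counts.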

Other observations

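A small cluster outside the named classes carried both ends of the lineage. Its 89 cells (cluster 29, unnamed) gave MBP at 1449 CPM (exact Poisson 95% interval 1334 to 1570, counting error only), MOG at 618 CPM (544 to 699), MAL at 363 CPM (307 to 426), FA2H at 326 CPM (273 to 386), UGT8 at 321 CPM (268 to 381) and GAL3ST1 at 51.5 CPM (31.9 to 78.7). PDGFRA, the receptor that marks OPCs, was at 574 CPM (503 to 652) there, and ST18 at 2091 CPM (1953 to 2236). GPR17, the receptor of newly committed precursors, had 0 UMIs. The committed precursor genes ITPR2, BCAS1, TCF7L2 and ENPP6 are not given here for this cluster. The GPR17 value alone therefore does not show whether its cells lack precursor markers. The median doublet score of these cells was 0.172 and their median depth 4135 UMIs, against scores of 0.00707 in the main OPC-like cluster and 0.0339 to 0.0446 in the oligodendrocyte-like clusters, at depths of 1596 to 2718 UMIs. Cluster 25, the 30 OPC-like cells besides the main cluster, had a median score of 0.178, with FA2H at 151 CPM (90.8 to 236) and GAL3ST1 at 15.9 CPM (1.92 to 57.4).

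Outside the lineage, 1 gene of the lipid list was called by edgeR: ELOVL5, a fatty acid elongase, was higher with sevoflurane in microglia-like cells by 1.25 ± 0.16 on the log2 scale (SE, edgeR adjusted p = 0.0278), with 183, 203 and 195 CPM against 415, 493 and 425 CPM. It was chosen after its values were seen. The number of genes called in this class, 7 of 7663 tested (0.0913%), was 0 with the replicate block, so ELOVL5 was not called there. It was 1 without oxygen replicate 1, 3 without oxygen replicate 2, 1 without oxygen replicate 3 and 2 without sevoflurane replicate 1. Without sevoflurane replicate 2, 8 genes were called higher and 2 lower, and without sevoflurane replicate 3, 6 higher and 4 lower. DESeq2 called 19 higher and 3 lower, and the count with no filter was 112. Whether ELOVL5 stayed called in these other alternatives is not given here.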
